A study of Mus musculus with 10 samples.

Results

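The interferon response genes examined here are 45 genes of the mouse response to interferon, out of 47643 genes in each deposited table. They were listed by name and matched by gene symbol, and all 45 were found. By role they fall into 4 receptor chains, 4 transcription factors, 2 sensors of viral RNA, 19 antiviral effectors, 10 protein modifiers and other response genes, and 6 interferon-inducible GTPases. By the interferon they lean towards, 34 are mainly genes of the type I response, 7 are mainly genes of the interferon-gamma response (Irf1 and the 6 GTPases), and the 4 receptor chains form a class of their own. RNA was sequenced from innate lymphoid cells (ILCs), tissue lymphocytes without rearranged antigen receptors, which had been sorted from skin of adult B6 mice, with no genotype given beyond the strain. The groups were epidermal ILCs (3 libraries), dermal ILCs sorted as CCR6+ (2), dermal ILCs sorted as Sca1+ (2) and subcutaneous ILCs (3). The dermal sorts used CCR6, which is the receptor of a chemokine, and Sca1, a protein of the Ly6 family on the cell surface. The labels give no infection, agent or interferon treatment for any group, so as far as the labels go these are levels without a stimulus.

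Type I interferons act through a receptor made of the Ifnar1 and Ifnar2 chains, which activates Stat2. A complex that holds Stat2 and Irf9 binds the interferon-stimulated response element (ISRE) in promoters of antiviral genes. Interferon-gamma acts through Ifngr1 and Ifngr2, is read in promoters mainly through the gamma-activated site (GAS), and induces Irf1 and GTPases that attack intracellular pathogens. In skin and other barrier tissues many cell types keep a low level of these genes without infection, and myeloid cells are among their strongest expressors.

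The promoters of 5 members are printed here. They were picked among promoters that hold an element, and so show it by construction. Of the members with an ISRE match, the 3 with the largest change between epidermal and subcutaneous ILCs were taken. Of the gamma-leaning members with a GAS match, the 2 with the largest change were taken. Oasl1 changed more than any of these, but its promoter held neither match. The printed promoters are RefSeq sequences of the GRCm38.p6 assembly, 250 bases before to 50 bases after the start of transcription, in the direction of transcription. Capitals mark the ISRE core TTCNNTTTC, searched on both strands, in the first 3 and the GAS element TTCNNNGAA, which reads the same on both strands, in the last 2. Ifit3b (chr19:34607707-34608006, plus strand) and Ifi44 (chr3:151749861-151750160, minus strand) had almost no reads in epidermal ILCs. Apol9b (chr15:77728822-77729121, plus strand) was highest there. Irf1 (chr11:53769764-53770063, plus strand) and Gbp7 (chr3:142530086-142530385, plus strand) lean to interferon-gamma.
Ifit3b: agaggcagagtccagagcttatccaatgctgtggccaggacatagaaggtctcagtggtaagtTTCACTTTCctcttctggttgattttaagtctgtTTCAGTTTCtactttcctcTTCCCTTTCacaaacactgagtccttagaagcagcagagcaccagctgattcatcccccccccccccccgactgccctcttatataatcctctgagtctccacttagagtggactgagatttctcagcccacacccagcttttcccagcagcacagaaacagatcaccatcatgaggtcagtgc
Ifi44: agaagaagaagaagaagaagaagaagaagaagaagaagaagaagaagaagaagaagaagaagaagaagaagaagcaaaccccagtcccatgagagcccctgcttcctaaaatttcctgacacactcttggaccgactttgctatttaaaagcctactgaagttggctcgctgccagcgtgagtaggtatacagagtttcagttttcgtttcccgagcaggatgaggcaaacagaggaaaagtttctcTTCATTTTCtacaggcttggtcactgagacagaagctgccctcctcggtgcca
Apol9b: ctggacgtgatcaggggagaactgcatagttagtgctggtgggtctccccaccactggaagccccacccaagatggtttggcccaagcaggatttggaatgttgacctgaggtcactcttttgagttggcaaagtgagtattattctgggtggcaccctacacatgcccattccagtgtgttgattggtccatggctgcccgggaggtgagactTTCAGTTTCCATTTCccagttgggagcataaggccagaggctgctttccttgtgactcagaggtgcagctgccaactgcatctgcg
Irf1: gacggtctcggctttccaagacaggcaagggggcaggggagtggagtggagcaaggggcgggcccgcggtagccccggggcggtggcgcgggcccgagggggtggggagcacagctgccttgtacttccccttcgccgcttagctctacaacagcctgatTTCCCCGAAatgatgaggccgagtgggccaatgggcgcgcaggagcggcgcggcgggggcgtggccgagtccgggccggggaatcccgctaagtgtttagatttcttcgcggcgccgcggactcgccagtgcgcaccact
Gbp7: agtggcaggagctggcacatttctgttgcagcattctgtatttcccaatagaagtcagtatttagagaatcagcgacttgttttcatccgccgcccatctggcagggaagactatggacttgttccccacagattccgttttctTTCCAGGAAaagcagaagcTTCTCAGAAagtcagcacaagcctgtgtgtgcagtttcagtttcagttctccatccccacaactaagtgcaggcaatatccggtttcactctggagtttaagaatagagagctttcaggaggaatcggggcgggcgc
Ifit3b held 3 matches to the ISRE core, Apol9b 2 that overlap in a single run of capitals, and Ifi44 1. Irf1 held 1 GAS match and Gbp7 held 2, besides 1 ISRE match that is left in lower case. Of the 45 members, 35 had an entry in the promoter table, with 42 promoters in all. The ISRE core was in 22 of these 42 promoters (52.4%), against 8.6% of all 32851 promoters of the same length. GAS was in 10 of 42 (23.8%), against 8.3% of all promoters. By class, the ISRE core was in 58.6% of the promoters of type I-leaning members, 55.6% of those of gamma-leaning members and none of the 4 of the receptor chains, of which 2 (Ifnar1 and Ifnar2) held GAS. A match is a description of letters in this window and not evidence that a factor binds there.

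Library totals lay between 11627222 and 18118544 expected counts, with 14983 to 19376 genes detected by at least 1 count. Levels are TPM, a share of all transcripts corrected for gene length. Fold changes are log2 ratios of normalized counts from the quasi-likelihood test of edgeR, with p-values adjusted by the Benjamini-Hochberg method over all 16208 genes tested, and a gene was called at an adjusted p under 0.05. Nothing in the labels says that replicates are from different animals, so the p-values measure a spread between libraries that may be only technical. Markers of the sorted cells were present in all groups. The 7 ILC markers summed to 4201.18 to 5624.4 TPM in epidermal and 6405.12 to 6940.86 TPM in dermal CCR6+ libraries. Their sums were 8381.79 to 8490.89 TPM in dermal Sca1+ and 6335.85 to 7353.25 TPM in subcutaneous libraries. Against subcutaneous ILCs 3 of the 7 were called lower in epidermal ILCs and 1 higher (backgrounds 13.3% and 6.87% of all genes). Against dermal Sca1+ 3 were lower (background 8.66%) and against dermal CCR6+ 2 (background 5.19%), with none higher. Markers of other cells differed between the layers too. The 11 macrophage markers summed to 4.53 to 9.31 TPM in epidermal, 215.62 to 254.69 TPM in dermal CCR6+, 394.91 to 764.31 TPM in dermal Sca1+ and 4240.21 to 8002.99 TPM in subcutaneous libraries. In epidermal libraries 4 to 7 of the 11 were detected, with Fcgr1 at 0 in all 3 and Csf1r at 0 in 2 of them, while all 11 were detected in each subcutaneous library. Keratinocyte markers ran the other way, with sums of 4580.07 to 17690.38 TPM in epidermal and 29.11 to 33.18 TPM in subcutaneous libraries. How far RNA of such cells contributed to the levels below was not tested. In bulk RNA, a smaller share of cells that express a gene and less of its RNA per cell cannot be told apart.

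All 45 members passed the filter on low counts, and they were on the whole lowest in epidermal and highest in subcutaneous ILCs. Of the 45, 32 were called lower in epidermal than in subcutaneous ILCs, where 13.3% of all genes tested were called lower, and 1 was called higher, where 6.87% of all genes were. By class these were 4 of 4 receptor chains, 23 of 34 type I-leaning and 5 of 7 gamma-leaning members. The median log2 fold change was -2.24 over the members, also with the 3 genes at 0 counts in a group set at their bound, and -0.02 over all genes. It was -2.05 for the receptors, -2.52 for the type I-leaning and -1.60 for the gamma-leaning members. The group mean was highest in subcutaneous ILCs for 34 of 45 members and lowest in epidermal ILCs for 30. For 19 it rose or stayed level at each step from epidermal through dermal CCR6+ and dermal Sca1+ to subcutaneous ILCs. These positions were not counted over all genes. The summed level of all members was 1080.01 to 1278.99 TPM in epidermal, 1885.13 to 1964.47 TPM in dermal CCR6+, 2647.74 to 2672.57 TPM in dermal Sca1+ and 3369.04 to 5123.06 TPM in subcutaneous libraries. The sums of the macrophage markers given above have the same order. Without subcutaneous replicate 2, which had the highest value of its group for 35 of 45 members, 21 members were called lower. Calls over all genes, in either direction, also fell without it, from 3268 to 2430. Without subcutaneous replicate 1 or 3, 27 members were called lower each time, with 2443 and 2512 calls over all genes. Subcutaneous replicate 2 also had the highest sums of macrophage (8002.99 TPM) and NK cell (541.42 TPM) markers, the other subcutaneous libraries having 5229.16 and 4240.21 TPM for the first and 35.8 and 8.1 TPM for the second. In 1 test for any difference among the 4 groups, 27 of 45 members were called, against 17.4% of all genes. With limma on log2(TPM + 1), 34 members were called lower and 1 higher. Among all called genes that scale gave 47.9% higher, against 34.1% in the count test.

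**Figure D1:**
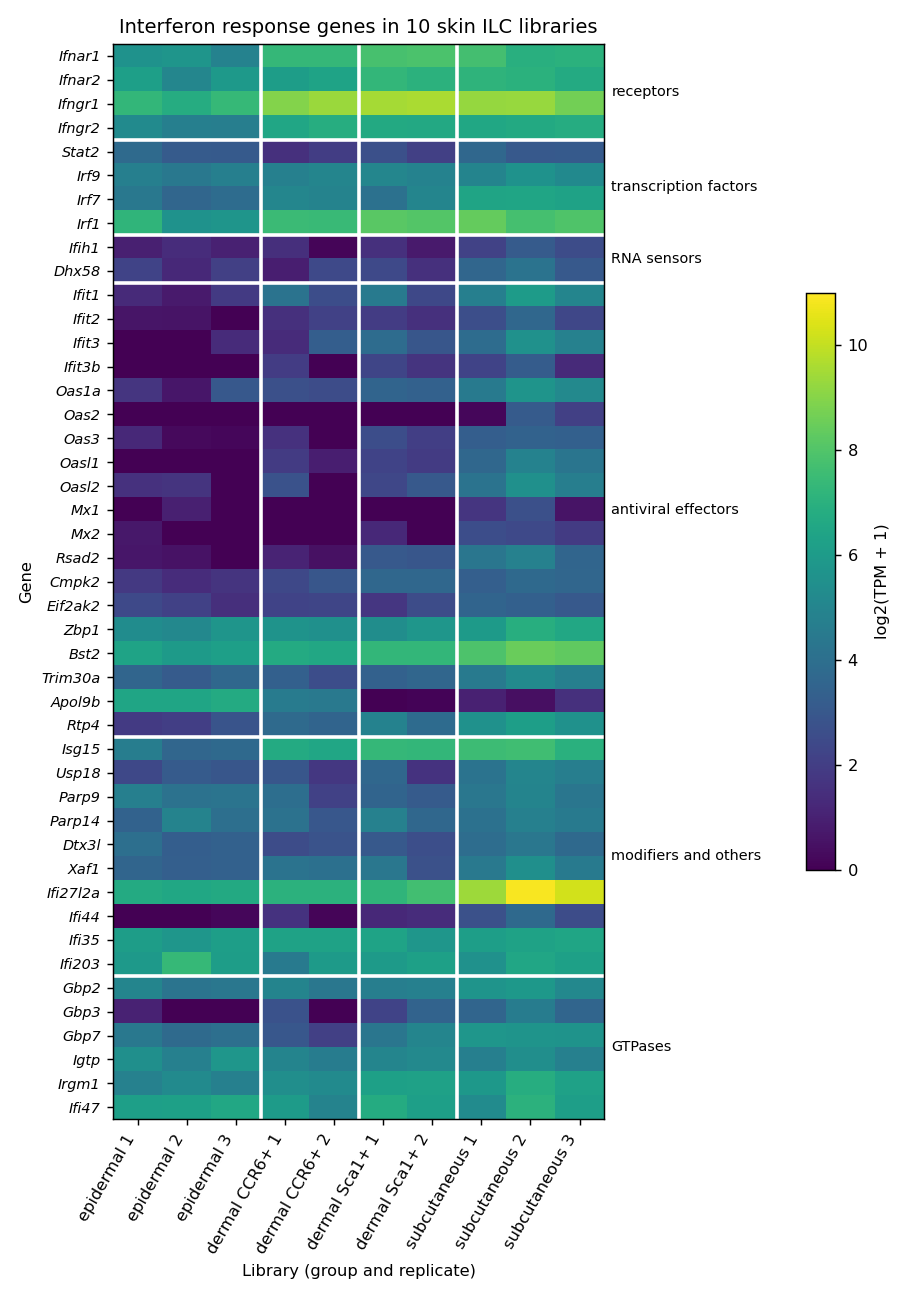
Level of each of the 45 members in each library as log2(TPM + 1), one row per gene grouped by role and one column per library. The rows of Ifnar1, Ifngr1 and Ifngr2 are darkest in the 3 epidermal columns, most effector rows are brightest in the 3 subcutaneous columns, and Apol9b is brightest in the epidermal columns.

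Epidermal ILCs had lower levels of all 4 receptor chains than subcutaneous and dermal Sca1+ ILCs, and of 3 of them than dermal CCR6+ ILCs. Ifnar1, the signalling chain of the type I receptor, had 47.3, 52.2 and 28.4 TPM in epidermal, 161.9 and 159.7 TPM in dermal CCR6+, 220.3 and 233.4 TPM in dermal Sca1+, and 207.3, 123.4 and 130.2 TPM in subcutaneous libraries. All epidermal libraries lay below all 7 others, and dermal and subcutaneous libraries overlapped. The log2 fold change of Ifnar1 in epidermal ILCs was -2.24 (SE 0.28, adjusted p = 0.000913) against dermal CCR6+, -2.73 (SE 0.28, adjusted p = 0.000185) against dermal Sca1+ and -2.27 (SE 0.26, adjusted p = 0.000187) against subcutaneous ILCs by edgeR's quasi-likelihood test. Ifngr1, the ligand-binding chain of the interferon-gamma receptor and the most abundant of the 4, had 154.7, 109.7 and 164.8 TPM in epidermal, 493.0 and 644.4 TPM in dermal CCR6+, 728.3 and 779.5 TPM in dermal Sca1+, and 615.9, 627.6 and 408.0 TPM in subcutaneous libraries. The epidermal libraries again lay below all others. Its log2 fold change in epidermal ILCs was -2.16 against dermal CCR6+ (edgeR adjusted p = 0.000444), -2.53 against dermal Sca1+ (adjusted p = 9.87e-05) and -2.10 against subcutaneous ILCs (adjusted p = 9.86e-05). Ifngr2, the chain that Ifngr1 needs to signal, had 37.5, 26.0 and 25.1 TPM in epidermal libraries and between 91.3 and 113.2 TPM in the other 7. Its log2 fold change in epidermal ILCs was -2.07 against dermal CCR6+ (edgeR adjusted p = 0.000178), -2.02 against dermal Sca1+ (adjusted p = 9.87e-05) and -2.0 against subcutaneous ILCs (adjusted p = 3.79e-05). These calls were kept without any 1 library.

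Ifnar2, the other type I receptor chain, followed the other 3 less closely. It had 73.6, 32.4 and 59.0 TPM in epidermal, 68.4 and 82.0 TPM in dermal CCR6+, 154.6 and 134.8 TPM in dermal Sca1+, and 140.5, 128.8 and 106.2 TPM in subcutaneous libraries. The epidermal and CCR6+ libraries overlapped, and both lay below the Sca1+ and subcutaneous ones. In epidermal ILCs Ifnar2 was lower than in dermal Sca1+ (log2 fold change -1.70, SE 0.30, edgeR adjusted p = 0.00428) and subcutaneous ILCs (-1.38, SE 0.27, adjusted p = 0.00524). Against dermal CCR6+ ILCs it had a log2 fold change of -0.62 (SE 0.30, adjusted p = 0.282). Among the 3 inner groups no receptor chain was called in any comparison, with log2 fold changes between -1.08 (Ifnar2, dermal CCR6+ against dermal Sca1+, SE 0.33, adjusted p = 0.258) and 0.45 (Ifnar1, dermal Sca1+ against subcutaneous, SE 0.28, adjusted p = 0.493). At an unadjusted p under 0.05, Ifnar2 alone passed in dermal CCR6+ against dermal Sca1+ and in dermal CCR6+ against subcutaneous ILCs, and limma on log2(TPM + 1) also called no chain among these groups. The receptor sum was 220.31 to 313.05 TPM in epidermal, 814.58 to 999.23 TPM in dermal CCR6+, 1205.98 to 1246.78 TPM in dermal Sca1+ and 756.26 to 1057.53 TPM in subcutaneous libraries. The sums of endothelial and fibroblast markers were also lowest in epidermal libraries. The ILC sum given above was lowest there too, and highest in dermal Sca1+ libraries. The 6 endothelial markers summed to 1.07 to 4.82 TPM in epidermal, 78.88 to 168.05 TPM in dermal CCR6+, 239.12 to 245.07 TPM in dermal Sca1+ and 140.16 to 223.28 TPM in subcutaneous libraries, and all 6 were called lower in epidermal ILCs against each other group and none among the inner groups. The 7 fibroblast markers summed to 0.03 to 8.55 TPM in epidermal, 436.55 to 734.06 TPM in dermal CCR6+, 855.88 to 1465.17 TPM in dermal Sca1+ and 954.64 to 1525.53 TPM in subcutaneous libraries. Their part in the receptor levels was not tested.

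**Figure D2:**
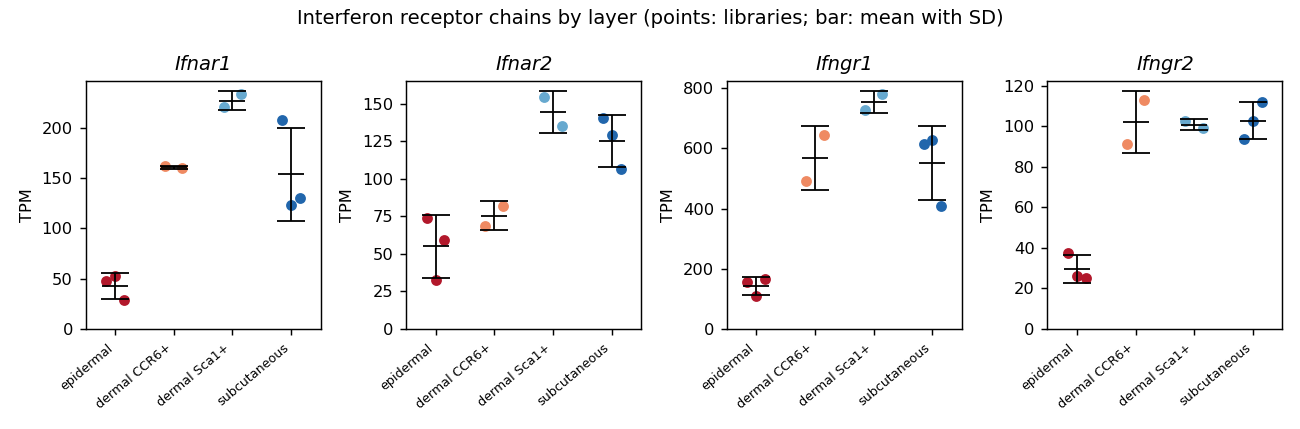
Level of each interferon receptor chain in TPM (vertical axis, from 0) by group, with 1 point per library and the group mean with its SD as a bar. For Ifnar1, Ifngr1 and Ifngr2 the 3 epidermal points lie below every other point, and for Ifnar2 they overlap the dermal CCR6+ points.

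Of the 4 transcription factors, Irf7, Irf1 and Irf9 were called lower in the epidermal against the subcutaneous group, and Stat2 was not. Irf7, which amplifies the type I response and is itself induced by it, had 19.9, 11.4 and 13.9 TPM in epidermal, 31.7 and 28.97 TPM in dermal CCR6+, 16.2 and 31.2 TPM in dermal Sca1+, and 84.6, 87.4 and 79.8 TPM in subcutaneous libraries. The subcutaneous libraries stood above all others, which overlapped in part. The log2 fold change of Irf7 was -2.77 in epidermal (SE 0.33, edgeR adjusted p = 0.000227), -1.58 in dermal CCR6+ (SE 0.36, adjusted p = 0.0263) and -1.93 in dermal Sca1+ ILCs (SE 0.37, adjusted p = 0.0262), each against subcutaneous ILCs. The dermal CCR6+ call was lost without any 1 of the 5 libraries compared (adjusted p up to 0.146, without dermal CCR6+ replicate 2). The dermal Sca1+ call was lost without dermal Sca1+ replicate 1 (adjusted p = 0.188) or any 1 subcutaneous library. Irf1, the first factor induced by interferon-gamma, had 145.4, 47.5 and 52.7 TPM in epidermal, 180.9 and 174.0 TPM in dermal CCR6+, 293.4 and 264.9 TPM in dermal Sca1+, and 334.0, 215.3 and 249.1 TPM in subcutaneous libraries. Epidermal replicate 1 was nearest to the dermal values, and no epidermal library reached them. Irf1 was lower in epidermal ILCs than in subcutaneous (log2 fold change -1.99, SE 0.30, edgeR adjusted p = 0.00108) and dermal Sca1+ ILCs (-2.02, SE 0.32, adjusted p = 0.0025). Against dermal CCR6+ ILCs (-1.39, SE 0.32, adjusted p = 0.0279) the call was lost without epidermal replicate 2 or 3 or either CCR6+ library (adjusted p up to 0.126).

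Stat2, the Stat that is specific to type I and related interferons, had its lowest level in dermal CCR6+ ILCs. It measured 12.9, 7.91 and 7.74 TPM in epidermal, 1.86 and 3.03 TPM in dermal CCR6+, 5.52 and 3.28 TPM in dermal Sca1+, and 11.8, 7.37 and 7.64 TPM in subcutaneous libraries. Epidermal and subcutaneous libraries covered the same range (log2 fold change -0.08, SE 0.33, edgeR adjusted p = 0.908). Stat2 was higher in epidermal than in dermal CCR6+ ILCs (1.82, SE 0.40, edgeR adjusted p = 0.0221) and lower in dermal CCR6+ than in subcutaneous ILCs (-1.90, SE 0.40, adjusted p = 0.0175). Both calls were lost without dermal CCR6+ replicate 1 or 2 (adjusted p up to 0.161 and 0.112), and the second also without subcutaneous replicate 1. Irf9, the DNA-binding partner of Stat2, varied little, with means of 23.9 ± 3.44 TPM in epidermal, 28.9 ± 3.20 TPM in dermal CCR6+, 30.1 ± 3.02 TPM in dermal Sca1+ and 38.4 ± 9.07 TPM in subcutaneous ILCs (SD, n = 3, 2, 2 and 3). Its call in epidermal against subcutaneous ILCs (-0.90, SE 0.26, edgeR adjusted p = 0.034) was lost without epidermal replicate 1 or 2 or subcutaneous replicate 2 or 3 (adjusted p up to 0.126). Irf7 overlaps Phrf1 on the other strand and Irf9 overlaps Rnf31, and the library preparation does not mark the strand.

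The 2 RNA sensors were called in no comparison by edgeR, although limma on log2(TPM + 1) called both lower in epidermal than in subcutaneous ILCs (Ifih1 adjusted p = 0.0269, Dhx58 adjusted p = 0.0216) and in dermal CCR6+ than in subcutaneous ILCs (0.0335 and 0.0424). Ifih1, which recognises long double-stranded RNA, had 0.93, 1.62 and 1.02 TPM in epidermal, 1.76 and 0.10 TPM in dermal CCR6+, 1.84 and 0.75 TPM in dermal Sca1+, and 3.48, 7.87 and 4.83 TPM in subcutaneous libraries. Every subcutaneous value was above every other, yet the log2 fold change of epidermal against subcutaneous ILCs was -2.35 with an SE of 0.98 (edgeR adjusted p = 0.121). Dhx58, a regulator of that sensing, had 3.62, 1.43 and 3.22 TPM in epidermal, 0.91 and 4.36 TPM in dermal CCR6+, 4.31 and 1.90 TPM in dermal Sca1+, and 11.4, 17.2 and 7.52 TPM in subcutaneous libraries (epidermal against subcutaneous, -2.46, SE 0.85, edgeR adjusted p = 0.068).

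Among the 19 antiviral effectors, 3 had no count in any epidermal library. Oasl1, which restrains translation of Irf7 mRNA in mice, had 0, 0 and 0 TPM in epidermal, 2.73 and 0.91 TPM in dermal CCR6+, 3.65 and 2.73 TPM in dermal Sca1+, and 11.95, 28.3 and 18.1 TPM in subcutaneous libraries. Against a floor of 3 counts over the epidermal group, it was at least 565.3-fold lower in epidermal than in subcutaneous ILCs (edgeR adjusted p = 0.000389), at least 47.1-fold lower than in dermal CCR6+ (adjusted p = 0.00739) and at least 80.7-fold lower than in dermal Sca1+ ILCs (adjusted p = 0.00292). The call of Oasl1 against dermal CCR6+ was lost with only the 2 groups compared, with the replicate block by title number and with limma on log2(TPM + 1), where the difference was -1.42 (adjusted p = 0.115). Ifit3b, of the family of Ifit proteins that bind foreign RNA, had 0, 0 and 0 TPM in epidermal, 2.83 and 0 TPM in dermal CCR6+, 3.92 and 2.17 TPM in dermal Sca1+, and 3.69, 8.16 and 1.46 TPM in subcutaneous libraries. It was at least 123.4-fold lower in epidermal than in subcutaneous ILCs (edgeR adjusted p = 0.0186), a call lost without epidermal replicate 3 or subcutaneous replicate 2 (adjusted p up to 0.0505). It was at least 83.9-fold lower than in dermal Sca1+ ILCs (adjusted p = 0.0378), a call that was kept without either dermal CCR6+ library and lost without any 1 of the other 8 (adjusted p up to 0.0966). Oas2, an enzyme that activates RNA decay, was at 0 in all 7 epidermal and dermal libraries and had 0.14, 8.03 and 3.23 TPM in the subcutaneous ones. It was at least 198.8-fold lower in epidermal than in subcutaneous ILCs (edgeR adjusted p = 0.02). Its 2 dermal comparisons with subcutaneous ILCs, with at least 115.3-fold (CCR6+) and 102.7-fold (Sca1+) lower levels, were not called (adjusted p = 0.0771 and 0.142). These floors cover counting error only, and reads of Ifit3b may be split with Ifit3, with which 61.8% of the 31-base words in Ifit3 transcripts are shared.

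The other Ifit and Oas genes were also lowest by group mean in epidermal and highest in subcutaneous ILCs. Ifit1, which binds RNA without a host cap, had 1.46, 0.72 and 2.63 TPM in epidermal, 17.2 and 5.12 TPM in dermal CCR6+, 21.2 and 4.23 TPM in dermal Sca1+, and 25.7, 64.4 and 31.4 TPM in subcutaneous libraries. The dermal replicates differed by several times, and each subcutaneous library was above all others. Ifit1 was lower in epidermal than in subcutaneous ILCs by a log2 fold change of -4.84 (SE 0.82, edgeR adjusted p = 0.00212). Against dermal Sca1+ ILCs it was -3.13 (SE 0.80, adjusted p = 0.0304), a call lost without epidermal replicate 1 or 2 or dermal Sca1+ replicate 1 (adjusted p up to 0.384). Ifit2 (-4.57, adjusted p = 0.0148), Ifit3 (-5.89, adjusted p = 0.0147) and Oas1a (-3.59, adjusted p = 0.00778) were likewise lower in epidermal against subcutaneous ILCs, the first 2 not without subcutaneous replicate 2 (adjusted p = 0.0608 and 0.0513). Oas3 (-4.34, edgeR adjusted p = 0.0407) and Oasl2 (-5.39, adjusted p = 0.0353) were too. The Oas3 call was lost without epidermal replicate 2 or 3, dermal Sca1+ replicate 1 or any subcutaneous library (adjusted p up to 0.117), and the Oasl2 call without epidermal replicate 1 or 3 or any subcutaneous library (adjusted p up to 0.102). Oas1a shares 68.7% of its 31-base words with Oas1g.

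Rsad2 and Cmpk2 are neighbouring genes on chromosome 12 whose products make and supply an antiviral nucleotide. Rsad2 had 0.58, 0.45 and 0 TPM in epidermal, 1.15 and 0.39 TPM in dermal CCR6+, 7.45 and 6.62 TPM in dermal Sca1+, and 18.8, 27.3 and 10.97 TPM in subcutaneous libraries. The epidermal and dermal CCR6+ libraries were near or below 1 TPM, and the Sca1+ libraries lay between these and the subcutaneous ones. Rsad2 was lower in epidermal ILCs than in subcutaneous (log2 fold change -6.19, SE 1.04, edgeR adjusted p = 0.00203) and dermal Sca1+ ILCs (-4.71, SE 1.01, adjusted p = 0.0134), the second not with only the 2 groups compared. In dermal CCR6+ against subcutaneous ILCs (-4.82, SE 1.15, adjusted p = 0.03) the call was lost without dermal CCR6+ replicate 2 (adjusted p = 0.193) or any 1 subcutaneous library. Cmpk2 had 2.53, 1.61 and 2.18 TPM in epidermal, 4.29 and 6.58 TPM in dermal CCR6+, 11.6 and 11.6 TPM in dermal Sca1+, and 9.14, 12.5 and 11.4 TPM in subcutaneous libraries. The Sca1+ and subcutaneous levels overlapped (log2 fold change 0.01, SE 0.36), and Cmpk2 was lower in epidermal ILCs than in both (-2.59 and -2.58, edgeR adjusted p = 0.00116 and 0.000488). Its call against dermal CCR6+ ILCs (-1.50, adjusted p = 0.0347) held without subcutaneous replicate 1 and was lost without any 1 of the other 9 libraries (adjusted p up to 0.224).

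Bst2, a surface protein that tethers budding virus, was the most abundant effector. It had 82.5, 61.9 and 72.8 TPM in epidermal, 103.7 and 96.4 TPM in dermal CCR6+, 154.4 and 153.9 TPM in dermal Sca1+, and 241.8, 352.7 and 313.4 TPM in subcutaneous libraries. The 4 groups did not overlap and followed the order of the layers. The log2 fold change of Bst2 was -2.24 in epidermal against subcutaneous (SE 0.23, edgeR adjusted p = 0.0001) and -1.64 in dermal CCR6+ against subcutaneous ILCs (SE 0.26, adjusted p = 0.00449), the second lost without dermal CCR6+ replicate 2 (adjusted p = 0.0623). In epidermal against dermal Sca1+ ILCs it was -1.18 (SE 0.24, adjusted p = 0.0112), lost without either Sca1+ library (adjusted p up to 0.0692). No single step between neighbouring groups was called by edgeR. With limma on log2(TPM + 1) Bst2 was called lower in dermal Sca1+ than in subcutaneous ILCs (-0.95, adjusted p = 0.0175). Bst2 is itself 1 of the 5 markers listed for plasmacytoid dendritic cells (with Siglech, Tcf4, Ccr9 and Irf8), which summed to 92.01 to 114.42 TPM in epidermal (4 of 5 detected), 132.79 to 155.91 TPM in dermal CCR6+ (3 detected), 196.3 to 196.79 TPM in dermal Sca1+ (3 to 4 detected) and 288.99 to 456.72 TPM in subcutaneous libraries (5 detected). Bst2 made up the larger part of this sum in each library, so the sums follow Bst2 by construction and say little of these cells. Siglech was at 0 in the epidermal and CCR6+ libraries, 0 and 0.06 TPM in the Sca1+ ones and 1.41, 4.53 and 0.15 TPM in the subcutaneous ones. Ccr9 had 0.54, 1.16 and 1.1 TPM in epidermal libraries, 0 in all 4 dermal ones and 4.63, 7.21 and 1.14 TPM in subcutaneous ones. Their part in the Bst2 level was not tested. Rtp4, a chaperone-like protein with antiviral activity, had 2.63, 3.15 and 6.24 TPM in epidermal, 13.1 and 10.6 TPM in dermal CCR6+, 28.3 and 13.2 TPM in dermal Sca1+, and 46.6, 71.0 and 46.8 TPM in subcutaneous libraries. It was lower in epidermal than in subcutaneous ILCs (-3.91, SE 0.49, edgeR adjusted p = 0.000346). Its 2 further calls were epidermal against dermal Sca1+ (-2.46, adjusted p = 0.00972), lost without dermal Sca1+ replicate 1 (adjusted p = 0.0998), and dermal CCR6+ against subcutaneous ILCs (-2.26, adjusted p = 0.0298). The last was lost without either CCR6+ library or subcutaneous replicate 2 or 3 (adjusted p up to 0.217).

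Zbp1, a sensor of unusual nucleic acid that can trigger cell death, had overlapping levels in the epidermal and both dermal groups. It had 39.8, 34.6 and 52.3 TPM in epidermal, 49.3 and 44.8 TPM in dermal CCR6+, 40.9 and 54.3 TPM in dermal Sca1+, and 62.2, 118.0 and 96.8 TPM in subcutaneous libraries. It was lower in epidermal than in subcutaneous ILCs (log2 fold change -1.43, SE 0.31, edgeR adjusted p = 0.00923), and its dermal CCR6+ against subcutaneous call (-1.37, adjusted p = 0.0458) was lost without epidermal replicate 2 or 3, any dermal library or subcutaneous replicate 2 or 3 (adjusted p up to 0.28). Trim30a, a ubiquitin ligase, had a log2 fold change of -1.61 in epidermal (edgeR adjusted p = 0.00684) and -1.98 in dermal CCR6+ ILCs (adjusted p = 0.013), each against subcutaneous ILCs. The second was lost without dermal CCR6+ replicate 2 (adjusted p = 0.128). Eif2ak2, the kinase that shuts off translation on double-stranded RNA, was lower in epidermal than in subcutaneous ILCs (-1.82, SE 0.45, adjusted p = 0.0174), a call lost without epidermal replicate 3 or subcutaneous replicate 1 or 2 (adjusted p up to 0.0609). The dynamin-like GTPases Mx1 and Mx2 stayed at or below 5.4 TPM in each library and were called in no comparison by edgeR (epidermal against subcutaneous, -2.31 and -5.63, adjusted p = 0.458 and 0.0713). With limma on log2(TPM + 1) Mx2 was called lower than in subcutaneous ILCs in epidermal (-2.08, adjusted p = 0.00161), dermal CCR6+ (-2.31, adjusted p = 0.00371) and dermal Sca1+ ILCs (-1.67, adjusted p = 0.0423). DESeq2 called Mx2 in the first 2 of these, and Mx1 in dermal CCR6+ against subcutaneous ILCs and in the contrast of steps described below.

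Apol9b, a mouse apolipoprotein L gene with antiviral activity, was the member called higher in epidermal ILCs. It had 86.8, 87.2 and 103.9 TPM in epidermal, 23.1 and 20.8 TPM in dermal CCR6+, 0 and 0.08 TPM in dermal Sca1+, and 1.01, 0.37 and 1.86 TPM in subcutaneous libraries. The 4 groups did not overlap. Its log2 fold change was 6.28 in epidermal (SE 0.56, edgeR adjusted p = 4.29e-05) and 4.31 in dermal CCR6+ (SE 0.55, adjusted p = 0.00121) against subcutaneous ILCs. Apol9b had 737 counts in dermal CCR6+ and 1 count in dermal Sca1+ ILCs, a ratio of 656.3 with a 95% counting interval of 117.4 to 25960 (edgeR adjusted p = 0.00228). In epidermal ILCs it had 4979 counts, a ratio to dermal Sca1+ of 2572 (95% interval 461.3 to 101600, adjusted p = 7.4e-05). Against dermal CCR6+ its log2 fold change in epidermal ILCs was 1.97 (SE 0.53, edgeR adjusted p = 0.055), which was not called. With limma on log2(TPM + 1) this difference was called (2.03, adjusted p = 0.00905). The call of lower Apol9b in dermal Sca1+ than in subcutaneous ILCs, from 1 and 49 counts (subcutaneous over Sca1+ ratio 31.98, 95% interval 5.478 to 1289, adjusted p = 0.0456), held without subcutaneous replicate 2 and was lost without any 1 of the other 9 libraries (adjusted p up to 0.273). Its near-identical neighbour Apol9a, not a member, had 55.0, 58.2 and 54.0 TPM in epidermal, 4.55 and 11.5 TPM in dermal CCR6+, 0 and 0 TPM in dermal Sca1+, and 0.66, 4.03 and 0.69 TPM in subcutaneous libraries. It shares 64.9% of the 31-base words of Apol9b, so reads may be split between them with error. Keratinocyte markers were also highest in epidermal libraries and were lowest in subcutaneous ones. Their sums were 1634.36 to 1887.01 TPM in dermal CCR6+ and 1731.95 to 1791.48 TPM in dermal Sca1+ libraries, beside the epidermal and subcutaneous sums given above. Within the epidermal group they were 4580.07 TPM in replicate 1 and 17313.52 and 17690.38 TPM in replicates 2 and 3. Their part in the Apol9b level was not tested.

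**Figure D3:**
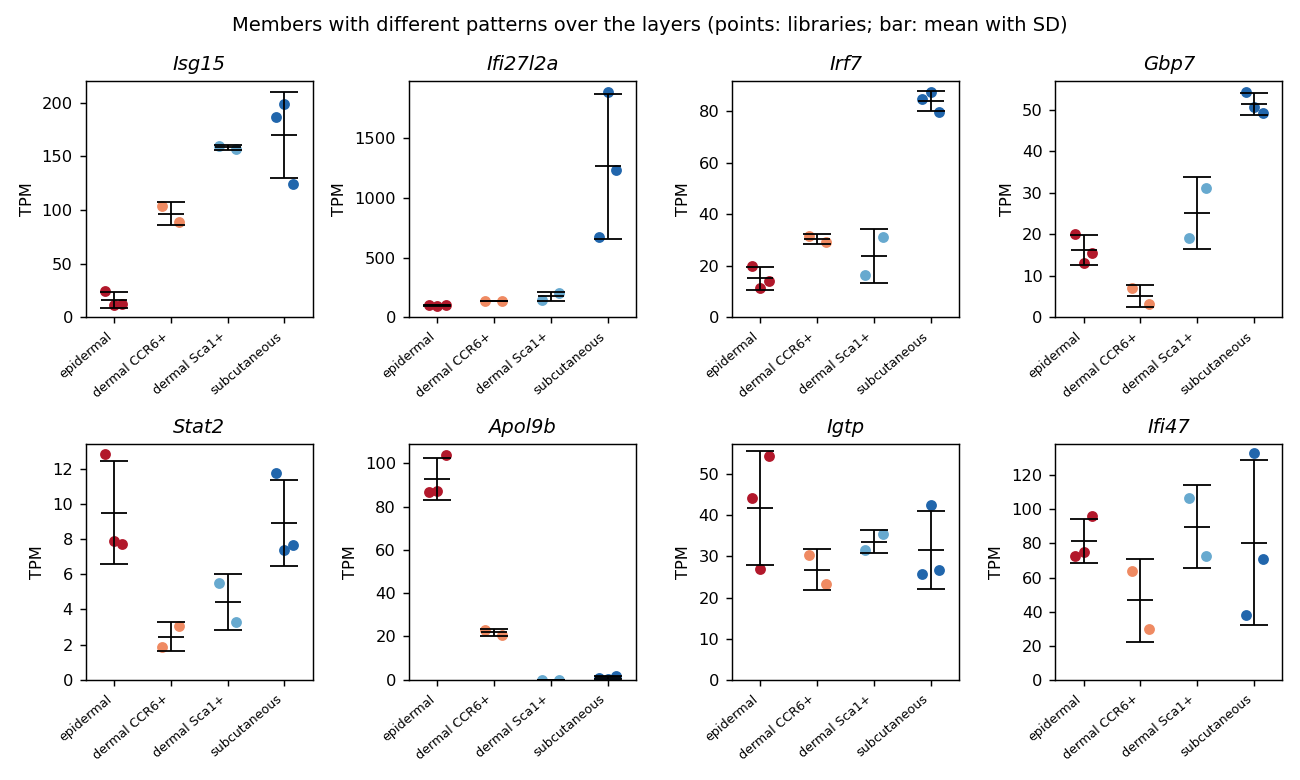
Levels in TPM (vertical axes, each from 0) of 8 members by group, with 1 point per library and the group mean with its SD. Isg15 is low in the epidermal libraries alone, Ifi27l2a and Irf7 are high in the subcutaneous libraries alone, Gbp7 and Stat2 are lowest in dermal CCR6+, Apol9b is highest in epidermal, and Igtp and Ifi47 overlap between groups.

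Among the 10 modifiers and other response genes, Isg15 was low in epidermal ILCs and Ifi27l2a was high in subcutaneous ILCs. Isg15, a ubiquitin-like protein attached to other proteins during the response, had 24.6, 11.4 and 12.5 TPM in epidermal, 104.1 and 88.9 TPM in dermal CCR6+, 160.0 and 157.0 TPM in dermal Sca1+, and 186.7, 199.0 and 123.7 TPM in subcutaneous libraries. The epidermal values lay far below all others, and Sca1+ and subcutaneous values overlapped. The log2 fold change of Isg15 in epidermal ILCs was -2.74 (SE 0.30, edgeR adjusted p = 0.000528) against dermal CCR6+, -3.42 (SE 0.31, adjusted p = 9.05e-05) against dermal Sca1+ and -3.58 (SE 0.30, adjusted p = 2.85e-05) against subcutaneous ILCs. Between dermal Sca1+ and subcutaneous ILCs it was -0.15 (SE 0.30, adjusted p = 0.89). Ifi27l2a, a small interferon-induced membrane protein and the most abundant member, had 103.9, 92.7 and 100.2 TPM in epidermal, 132.8 and 131.6 TPM in dermal CCR6+, 145.6 and 202.9 TPM in dermal Sca1+, and 673.6, 1892 and 1231 TPM in subcutaneous libraries. The epidermal and dermal libraries lay between 92.7 and 202.9 TPM, below each subcutaneous one. Its log2 fold change against subcutaneous ILCs was -3.83 in epidermal (SE 0.39, edgeR adjusted p = 9.68e-05), -3.30 in dermal CCR6+ (SE 0.46, adjusted p = 0.00194) and -2.98 in dermal Sca1+ ILCs (SE 0.45, adjusted p = 0.00719). The last call was lost without dermal Sca1+ replicate 1 (adjusted p = 0.081). Between epidermal and dermal CCR6+ ILCs it was -0.52 (SE 0.40, adjusted p = 0.539).

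Ifi44 had 0, 0 and 0.16 TPM in epidermal, 2.09 and 0.12 TPM in dermal CCR6+, 1.43 and 1.61 TPM in dermal Sca1+, and 5.62, 12.5 and 4.88 TPM in subcutaneous libraries. It was lower in epidermal than in subcutaneous ILCs (log2 fold change -7.09, SE 1.44, edgeR adjusted p = 0.00614). Xaf1, a promoter of cell death, had 11.2, 9.07 and 9.54 TPM in epidermal, 17.2 and 15.8 TPM in dermal CCR6+, 19.3 and 5.56 TPM in dermal Sca1+, and 21.1, 44.2 and 22.2 TPM in subcutaneous libraries. Its call in epidermal against subcutaneous ILCs (-1.73, SE 0.46, edgeR adjusted p = 0.0249) was lost without any 1 epidermal library or subcutaneous replicate 2 (adjusted p up to 0.106). Usp18, which removes Isg15 and dampens Ifnar2 signalling, was not called by edgeR (epidermal against subcutaneous, -2.03, SE 0.69, adjusted p = 0.0646). With limma on log2(TPM + 1) Usp18 was called lower in epidermal (-1.78, adjusted p = 0.025) and dermal CCR6+ (-2.25, adjusted p = 0.0258) than in subcutaneous ILCs, as it was with DESeq2.

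The genes for the ADP-ribosylation proteins Parp9 and Parp14 and for Dtx3l, the ubiquitin ligase that partners Parp9, had epidermal levels in TPM within or near the range of the subcutaneous ones. Parp9 had 25.7, 16.6 and 17.9 TPM in epidermal, 14.6 and 3.41 TPM in dermal CCR6+, 10.7 and 7.93 TPM in dermal Sca1+, and 19.4, 30.6 and 19.0 TPM in subcutaneous libraries, and was called in no comparison by edgeR. With limma on log2(TPM + 1) Parp9 was called in the contrast of the outer with the inner step described below (2.52, adjusted p = 0.0439), and DESeq2 called it there and in dermal CCR6+ against subcutaneous ILCs. Dtx3l had 15.3, 8.90 and 9.68 TPM in epidermal, 4.90 and 5.97 TPM in dermal CCR6+, 7.36 and 5.26 TPM in dermal Sca1+, and 14.4, 19.5 and 12.5 TPM in subcutaneous libraries. Both dermal groups lay below epidermal and subcutaneous ones. Dtx3l was lower in dermal CCR6+ (log2 fold change -1.59, SE 0.31, edgeR adjusted p = 0.0121) and dermal Sca1+ (-1.55, SE 0.31, adjusted p = 0.0301) than in subcutaneous ILCs. The first call was lost without either CCR6+ library (adjusted p up to 0.0904) and the second without any 1 of the 5 libraries compared (adjusted p up to 0.157). Parp9 and Dtx3l overlap on opposite strands, so their reads cannot be told apart there. Parp14 had 10.03, 29.5 and 15.3 TPM in epidermal, 16.8 and 6.85 TPM in dermal CCR6+, 27.9 and 11.6 TPM in dermal Sca1+, and 16.3, 27.1 and 21.8 TPM in subcutaneous libraries, which overlap. The count test nonetheless called it lower in epidermal than in subcutaneous ILCs (-1.70, SE 0.48, edgeR adjusted p = 0.0319), and lower in dermal CCR6+ than in subcutaneous ILCs (-2.42, adjusted p = 0.0311). On log2(TPM + 1) with limma the first difference was -0.34 (adjusted p = 0.649), and in counts it was lost without epidermal replicate 2 or 3 or subcutaneous replicate 1 or 2 (adjusted p up to 0.104). The second was lost without any 1 of its 5 libraries (adjusted p up to 0.191). Ifi35 (54.1 to 86.6 TPM over all 10 libraries) and Ifi203 (21.7 to 163.9 TPM), a member of the family of DNA-binding Ifi200 proteins, were called in no comparison. Ifi203 overlaps Mndal on the same strand.

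The 6 GTPases split between 4 called lower in epidermal against subcutaneous ILCs (Gbp2, Gbp3, Gbp7 and Irgm1) and 2 that were not called (Igtp and Ifi47). Gbp7, a guanylate-binding protein of the defence against intracellular pathogens, had 20.04, 13.2 and 15.4 TPM in epidermal, 6.99 and 3.26 TPM in dermal CCR6+, 19.0 and 31.3 TPM in dermal Sca1+, and 54.4, 50.7 and 49.2 TPM in subcutaneous libraries. The CCR6+ libraries lay below all others and the subcutaneous ones above. Its log2 fold change was -1.77 in epidermal (SE 0.23, edgeR adjusted p = 0.000411) and -3.23 in dermal CCR6+ ILCs (SE 0.29, adjusted p = 0.000237), each against subcutaneous ILCs. Gbp7 was higher in epidermal than in dermal CCR6+ ILCs (1.46, SE 0.27, adjusted p = 0.00812), lost without dermal CCR6+ replicate 2 (adjusted p = 0.0663). It was lower in dermal CCR6+ than in dermal Sca1+ ILCs (-2.17, SE 0.29, adjusted p = 0.00869), lost without dermal CCR6+ or dermal Sca1+ replicate 2 (adjusted p up to 0.0736).

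Gbp2, a related guanylate-binding protein, had 31.3, 17.6 and 19.7 TPM in epidermal and 50.4, 56.6 and 34.4 TPM in subcutaneous libraries (log2 fold change -1.23, SE 0.26, edgeR adjusted p = 0.00792), with 30.2 and 19.6 TPM in dermal CCR6+ and 25.1 and 27.0 TPM in dermal Sca1+ libraries. Gbp3 was listed at 1.08, 0 and 0 TPM in epidermal and 10.95, 23.8 and 10.9 TPM in subcutaneous libraries. Its call (-5.69, SE 1.81, edgeR adjusted p = 0.0495) was lost without epidermal replicate 2 or 3, either Sca1+ library or any subcutaneous library (adjusted p up to 0.122). Irgm1, an immunity-related GTPase that regulates the others of its family, had 27.3, 37.6 and 26.3 TPM in epidermal, 42.4 and 37.8 TPM in dermal CCR6+, 76.1 and 77.3 TPM in dermal Sca1+, and 57.6, 113.3 and 76.4 TPM in subcutaneous libraries. It was lower in epidermal than in subcutaneous (-1.60, SE 0.32, edgeR adjusted p = 0.00525) and dermal Sca1+ ILCs (-1.41, SE 0.34, adjusted p = 0.023), the second lost without epidermal replicate 1 or 3 or either Sca1+ library (adjusted p up to 0.0998). Igtp, another of that family, had 44.2, 27.0 and 54.4 TPM in epidermal, 30.3 and 23.3 TPM in dermal CCR6+, 31.5 and 35.5 TPM in dermal Sca1+, and 25.6, 42.6 and 26.8 TPM in subcutaneous libraries (epidermal against subcutaneous, 0.25, SE 0.32, edgeR adjusted p = 0.658). Ifi47 had 72.8, 75.1 and 96.1 TPM in epidermal and 38.0, 133.0 and 70.7 TPM in subcutaneous libraries (-0.17, SE 0.47, adjusted p = 0.858). For both, the groups overlapped. Igtp overlaps Irgm2 on the same strand.

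Between neighbouring groups, the members changed at different steps. In epidermal against dermal CCR6+ ILCs, 7 members were called lower (Ifnar1, Ifngr1, Ifngr2, Irf1, Isg15, Oasl1 and Cmpk2), with 5.19% of all genes called lower, and 2 higher (Stat2 and Gbp7), with 0.987% of all genes higher. In dermal CCR6+ against dermal Sca1+ ILCs, 1 member was called lower (Gbp7, background 0.346%) and 1 higher (Apol9b, background 0.296%). In dermal Sca1+ against subcutaneous ILCs, 4 were called lower (Irf7, Dtx3l, Ifi27l2a and Apol9b, background 0.993%) and none higher (background 1.21%), and leaving out 1 library moved this count between 0 and 4. Calls over all genes in that comparison, 357 in either direction, then moved between 157 and 420. No member was higher there at an unadjusted p under 0.05 either (19 were lower), and DESeq2 and limma also called none higher. The share of all genes that passed at an unadjusted p was not counted, so the 19 cannot be set against it. Over the 3 steps the median log2 fold change was -2.11, -0.43 and 0.37 for the 4 receptors, -0.47 (-0.52 with genes at 0 counts at their bound), -0.56 and -1.56 for the 34 type I-leaning members, and -0.28, -0.93 and -0.18 for the 7 gamma-leaning ones. The median of all genes was 0, -0.01 and -0.03. The receptors thus had their largest median difference at the outer step and the type I-leaning members at the inner step. Across the inner step the macrophage sum was 394.91 to 764.31 TPM in dermal Sca1+ and 4240.21 to 8002.99 TPM in subcutaneous libraries. Whether the classes differ from each other was not tested.

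A test of that difference for each gene, chosen after the levels were seen, compared the log2 fold change of epidermal over dermal CCR6+ with that of dermal Sca1+ over subcutaneous ILCs. Outer minus inner was called negative for 4 members (background 4.63%) and positive for 5 (background 1.2%). Negative values, where the outer difference was the more negative one, were found for Ifnar1 (-2.70, SE 0.39, edgeR adjusted p = 0.00311), Ifngr1 (-2.58, SE 0.33, adjusted p = 0.00162), Ifngr2 (-2.09, SE 0.26, adjusted p = 0.00161) and Isg15 (-2.59, SE 0.42, adjusted p = 0.00571). Positive ones were found for Gbp7 (2.52, SE 0.37, adjusted p = 0.00335), Dtx3l (2.56, SE 0.43, adjusted p = 0.00693), Apol9b (6.71, SE 1.14, adjusted p = 0.00734), Stat2 (2.85, SE 0.55, adjusted p = 0.0138) and Ifi27l2a (2.45, SE 0.58, adjusted p = 0.0354). The call for Stat2 was lost without dermal CCR6+ replicate 1 or dermal Sca1+ replicate 2 (adjusted p up to 0.0552). The call for Ifi27l2a was lost without epidermal replicate 2 or 3, any dermal library or subcutaneous replicate 2 or 3 (adjusted p up to 0.134). Isg15 and Ifi27l2a, both type I-leaning, thus had differences of opposite sign in this test. Irf7 (0.73, SE 0.49, adjusted p = 0.462) and Bst2 (0.46, SE 0.35, adjusted p = 0.528) were not called.

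**Figure D4:**
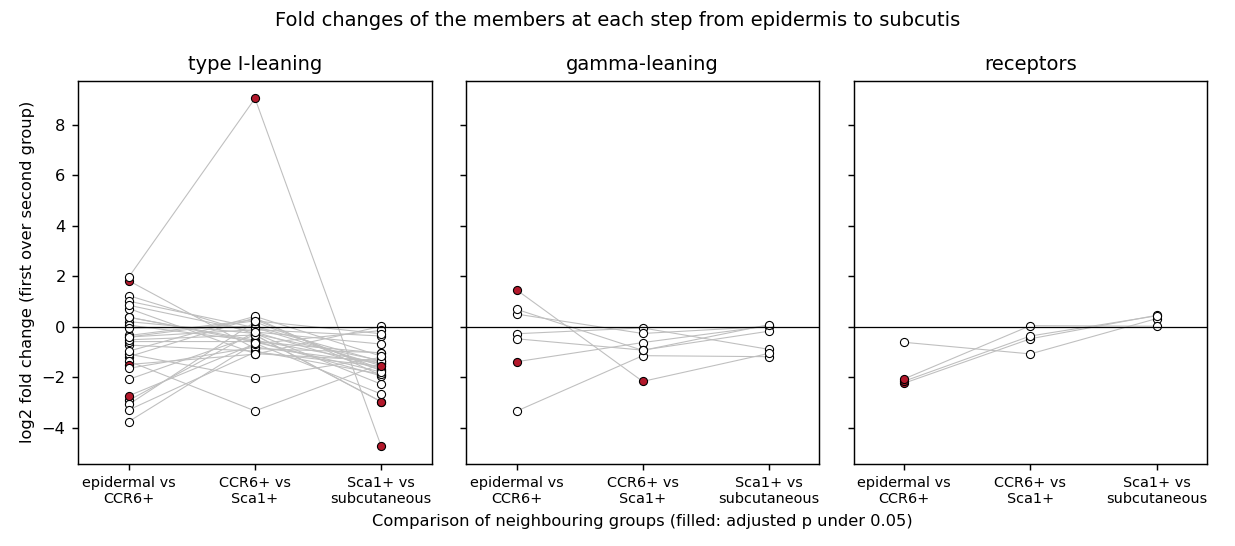
Log2 fold change (vertical axis) of each member at the 3 steps between neighbouring groups, in 3 panels by class, with lines joining the values of a gene and filled points for an edgeR adjusted p under 0.05. The 5 type I-leaning members with a group at 0 counts are left out, which leaves 29 in the first panel. Of the 4 receptors 3 are filled at the epidermal step and all lie near 0 at the innermost one.

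In the 2 comparisons of groups that are not neighbours, epidermal against dermal Sca1+ ILCs had 14 members called lower (background 8.66%) and 1 higher (Apol9b, background 2.75%). The 14 were all 4 receptors, 8 type I-leaning members and 2 gamma-leaning ones (Irf1 and Irgm1). The median log2 fold change was -0.85 over the members, or -1.01 with genes at 0 counts set at their bound and 1 gene with too few counts in both groups left out, and 0 over all genes. In dermal CCR6+ against subcutaneous ILCs, 11 members were called lower (background 3.71%) and 1 higher (Apol9b, background 3.75%). The 11 were 10 type I-leaning members and Gbp7, and no receptor was among them. The median was -1.64 over the members and -0.08 over all genes. Leaving out dermal CCR6+ replicate 2 left 3 members lower, and leaving out subcutaneous replicate 2 or 3 left 6. Calls over all genes in that comparison, in either direction, fell from 1209 to 435, 831 and 810 in these 3 cases. The epidermal against dermal Sca1+ count was 9 without dermal Sca1+ replicate 1, where calls over all genes fell from 1848 to 1199.

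Beyond the members, 75 other genes of the interferon pathway were listed, and 67 of them could be tested. In epidermal against subcutaneous ILCs, 20 were called lower (background 13.3%) and 1 higher (Apol9a, background 6.87%), with a median log2 fold change of -0.78, against -0.02 over all genes. Cxcl10, a chemokine induced by interferon-gamma that draws T cells, had 34.6, 23.3 and 22.6 TPM in epidermal, 167.3 and 148.5 TPM in dermal CCR6+, 159.4 and 104.1 TPM in dermal Sca1+, and 246.7, 299.3 and 117.9 TPM in subcutaneous libraries. Socs3, an inhibitor of cytokine signalling that responds to other cytokines as well, had 12.3, 9.01 and 11.4 TPM in epidermal, 81.1 and 36.2 TPM in dermal CCR6+, 97.4 and 77.0 TPM in dermal Sca1+, and 120.1, 117.6 and 85.3 TPM in subcutaneous libraries. As with Ifnar1, Ifngr1 and Ifngr2, all epidermal values lay below all others. Cxcl10 was lower in epidermal than in dermal CCR6+ (-2.62), dermal Sca1+ (-2.39) and subcutaneous ILCs (-3.13), and Socs3 likewise (-2.55, -3.13 and -3.46), each with an edgeR adjusted p of 0.0015 or less. Ifitm3, which blocks entry of virus, had 59.3, 98.8 and 138.1 TPM in epidermal and 1010.4, 1596.2 and 1115.6 TPM in subcutaneous libraries (-3.76, edgeR adjusted p = 0.000229). Iigp1, an immunity-related GTPase, had 2.45, 0.15 and 1.33 TPM in epidermal, 6.74 and 2.30 TPM in dermal CCR6+, 21.3 and 18.3 TPM in dermal Sca1+, and 34.8, 54.0 and 30.0 TPM in subcutaneous libraries (epidermal against subcutaneous, -5.18, edgeR adjusted p = 0.000833). Of the 8 interferon genes listed, only Ifng, which encodes interferon-gamma, had enough counts to be tested. It had 3.0, 0 and 1.5 TPM in epidermal, 0.08 and 0 TPM in dermal CCR6+, 3.90 and 1.25 TPM in dermal Sca1+, and 2.56, 15.8 and 0 TPM in subcutaneous libraries, and was called in no comparison.

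Over the other comparisons of these 67 genes, the counts of lower and higher calls were 5 and 0 for epidermal against dermal CCR6+ (backgrounds 5.19% and 0.987%), 0 and 1 for dermal CCR6+ against dermal Sca1+ (Apol9a, backgrounds 0.346% and 0.296%), and 1 and 0 for dermal Sca1+ against subcutaneous (Irf5, backgrounds 0.993% and 1.21%). They were 8 and 3 for epidermal against dermal Sca1+ (backgrounds 8.66% and 2.75%) and 6 and 1 for dermal CCR6+ against subcutaneous ILCs (backgrounds 3.71% and 3.75%). The 5 and the 8 lower calls are shares of the 67 genes near their backgrounds, and the other counts are mostly of 0 or 1 gene. At an unadjusted edgeR p under 0.05 the 3 comparisons with a count of 0 had 7 higher, 8 lower and 2 higher. The share of all genes at that threshold was not counted. Among the genes of signal transduction, which include the Jak kinases, 3 of 15 were called lower in epidermal against subcutaneous ILCs, a share near the background of 13.3%, with a median log2 fold change of -0.01, against -0.02 over all genes.

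The summed level of the 34 type I-leaning members was 623.89 to 641.8 TPM in epidermal, 677.75 to 710.08 TPM in dermal CCR6+, 881.86 to 910.63 TPM in dermal Sca1+ and 1740.55 to 3505.2 TPM in subcutaneous libraries. The narrow epidermal range holds Apol9b, which is a sizeable part of it. For the 7 gamma-leaning members it was 217.9 to 342.05 TPM in epidermal, 287.49 to 360.47 TPM in dermal CCR6+, 519.1 to 555.96 TPM in dermal Sca1+ and 517.45 to 635.31 TPM in subcutaneous libraries, so that the 2 inner groups overlapped. In subcutaneous replicates 1, 2 and 3 the type I-leaning sums were 1740.55, 3505.2 and 2429.54 TPM. The macrophage sums of these libraries were 5229.16, 8002.99 and 4240.21 TPM. What macrophage RNA adds to these levels was not tested.

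**Figure D5:**
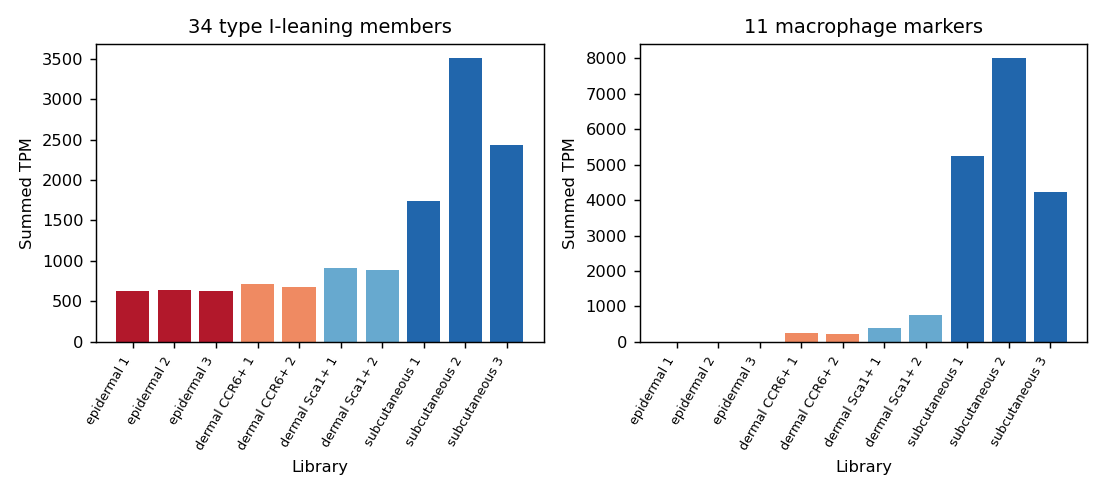
Summed TPM (vertical axes, from 0) of the 34 type I-leaning members (left) and of 11 macrophage markers (right) in each library, with bars coloured by group. Both sums are highest in subcutaneous replicate 2 and lowest in the epidermal libraries, at 623.89 to 641.8 TPM for the members and 4.53 to 9.31 TPM for the markers.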

How the data were processed

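RNA of 10 libraries of skin ILCs was made into low-input cDNA libraries (SMART-Seq, Nextera XT) that do not mark strand, per the labels' protocols. The submitters' processing notes name mm10 and the tools Trimmomatic, STAR and RSEM, with their versions, their settings and the annotation release not given in the sources used here. The deposited expected counts are RSEM's estimates of reads per gene (7.2% to 8.39% of values not whole), and the deposited TPM values, per the file headers, are abundances per effective length, scaled alike in each library. The authors' FPKM values were not used. Gene IDs were matched to GENCODE M21 symbols (47224 of 47643, 39106 in the same version).

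Samples were grouped by title, since replicate 2 of each dermal sort has a cell type label without the sort marker. The design text speaks of triplicates, and 2 libraries of either dermal group were analysed here. Counts were rounded, filtered with edgeR's filterByExpr (count minimum 10, 16208 genes left), TMM-normalized and fitted in 1 model of 4 groups (edgeR 4.0.16 in R 4.3.3, glmQLFit and glmQLFTest, two-sided, biological coefficient of variation 0.62). SE is the absolute log2 fold change over the square root of F. The test was checked on simulated data with a smaller spread than these libraries have, so the check says little of its error rates here. A fold against a group with no count uses a floor of 3 counts over the group, and a ratio to a group with 1 to 3 counts carries a 95% interval from exact Poisson limits. Replicates differed by more than sampling noise (chi-square per degree of freedom at least 39.8), so each was counted once. The members, lists and tests were chosen with earlier results of these data known. Alternatives were RLE size factors, DESeq2 1.42.0, limma 3.58.1 on log2(TPM + 1) and log2(TPM + 0.1), other filters, a test against an absolute log2 fold change of 1, the 2 groups compared alone, summed near-identical copies, replicate blocks and each library left out. Genes named are the receptors, factors, sensors and GTPases, the 12 other members with the highest mean TPM, the 4 further ones with the largest change, and pathway genes with the largest called changes. The rest were named after their values were seen. Coordinates of promoters are RefSeq's for GRCm38.p6, the assembly of mm10. The result of 1 pathway gene is not reported here.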

Additional observations from a re-analysis of the deposited data

How the results depend on the processing

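No call of a member turned its direction under any alternative. Of 84 pairs of a member and a comparison that were called, 44 lost the call under at least 1 alternative and 35 without 1 library. Of the pairs not called, 71 gained a call under at least 1 alternative. Depth limits the genes at or near 0 counts.

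Without 1 library, the number of members called lower lay between 21 and 34 for epidermal against subcutaneous, 5 and 7 for epidermal against dermal CCR6+, 0 and 1 for dermal CCR6+ against dermal Sca1+, 0 and 4 for dermal Sca1+ against subcutaneous, 9 and 16 for epidermal against dermal Sca1+, and 3 and 12 for dermal CCR6+ against subcutaneous ILCs. The number called higher stayed at 1, except for epidermal against dermal CCR6+ (0 to 3) and dermal Sca1+ against subcutaneous ILCs (0). For the outer against the inner step it lay between 3 and 5 positive and 4 and 6 negative calls, and for any difference between 20 and 32. Calls over all genes moved too. They lay between 2280 and 3233 (main 3268) for epidermal against subcutaneous and between 157 and 420 (main 357) for dermal Sca1+ against subcutaneous. For dermal CCR6+ against subcutaneous ILCs they lay between 435 and 1372 (main 1209).

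A test against an absolute log2 fold change of 1 left 20 members lower in epidermal against subcutaneous, 0 higher in epidermal against dermal CCR6+, 0 lower in dermal CCR6+ against dermal Sca1+, 1 lower in dermal Sca1+ against subcutaneous, 9 lower in epidermal against dermal Sca1+ and 2 lower in dermal CCR6+ against subcutaneous ILCs. Over all genes, in the same order and in either direction, it called 1747, 539, 40, 170, 965 and 469. The main test called 3268, 1001, 104, 357, 1848 and 1209. With no filter beyond 1 count, epidermal against dermal CCR6+ had 4 higher and 15 lower, dermal CCR6+ against dermal Sca1+ 4 lower, dermal Sca1+ against subcutaneous 15 lower, dermal CCR6+ against subcutaneous 27 lower, and the outer against the inner step 10 positive and 7 negative. With DESeq2 these were 4 and 13, 3, 10, 23 and, for the step, 8 positive, and epidermal against dermal Sca1+ had 2 higher. Calls over all genes rose as well. In the order given for no filter, they were 2028, 647, 1328, 2292 and 2013, against 1001, 104, 357, 1209 and 944 in the main test. DESeq2 called 2001, 561, 1193, 2345 and 1910 genes there, and 2967 for epidermal against dermal Sca1+. With only the 2 groups compared, epidermal against dermal CCR6+ had 1 higher and 4 lower, and dermal CCR6+ against dermal Sca1+ had 0 higher and 0 lower. Over all genes these had 618 and 47 calls. With limma on log2(TPM + 1), epidermal against dermal CCR6+ had 4 lower and dermal CCR6+ against subcutaneous 21, and with log2(TPM + 0.1) dermal CCR6+ against subcutaneous had 17. Over all genes limma had 1097 and 1978 calls on the first scale and 1899 on the second. The causes were not tested.

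On log2(TPM + 1) all genes had a median log2 fold change of 0.082 for epidermal against subcutaneous ILCs, against -0.022 in counts. The share of called genes that were higher was 35.6% against 16% for epidermal against dermal CCR6+, 40% against 54.9% for dermal Sca1+ against subcutaneous, 39.1% against 24.1% for epidermal against dermal Sca1+ and 38.4% against 20.6% for the step.

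Deviations of same-numbered libraries from their group means had correlations between -0.038 and 0.114 over 13 pairs, and 3 of 10 libraries correlated best with their own number. By runs of the names' numbers the correlations lay between -0.022 and 0.114 over 13 pairs, with 5 of 10 best within their own run. In each dermal group the deviations of the 2 libraries mirror each other, so this check cannot exclude pairing. With the replicate block by title number, epidermal against dermal CCR6+ had 1 higher and dermal Sca1+ against subcutaneous 1 lower. With a replicate block by runs of the names' numbers these were 1 and 2. Over all genes the first block gave 668 and 203 calls and the second 992 and 259, against 1001 and 357 without a block.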
